A study of Macaca fascicularis with 16 samples.

Results

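The 9 genes described here mark or equip invariant natural killer T (iNKT) cells and other innate-like T cells. They were chosen by symbol from the count tables: the transcription factors ZBTB16 (which encodes PLZF) and GATA3, the SLAM-family receptors SLAMF1 and SLAMF6, their adaptor SH2D1A (SAP) and the kinase FYN, the antigen-presenting molecule CD1D, and the surface proteins KLRB1 (CD161) and DPP4 (CD26). All 9 of the 9 were found among 23602 gene symbols, and all 9 had enough counts to be among the 11545 genes tested. Mononuclear cells came from the blood of 4 cynomolgus macaques of Mauritian origin, named LG04, LG11, LG12 and LG15. Each animal gave 1 library before NKTT320, an antibody directed at the iNKT cell's own receptor, and 1 library each at 30 minutes, 2 hours and 1 day after it, so there were 4 groups of 4 libraries and 16 libraries in all. Every animal received the antibody and none without it was analysed here, so the drug, the passage of time and the repeated bleeding cannot be told apart.

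An iNKT cell recognises lipid antigens held by CD1D through a receptor with an invariant alpha chain. During its development, contact between SLAM receptors on neighbouring thymocytes passes a signal through SAP to FYN, and PLZF then gives the cell its effector character. Mature cells of this kind often carry CD161 and CD26, markers they share with mucosal-associated invariant T (MAIT) cells and some natural killer (NK) cells. In blood these cells are rare, and the RNA was taken from unfractionated mononuclear cells, so every level below is that of the whole cell mixture. In such bulk samples, fewer cells of a type and less RNA per cell cannot be told apart. The segments of the invariant receptor itself could not be followed, since 0 of the 6 receptor genes listed (TRAV10, TRAJ18, TRBV25-1, TRAC, TRBC1 and TRBC2) stood in the count tables.

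Total counts ran from 1417467 to 8582852 per library, so 3 counts corresponded to between 0.35 and 1.97 CPM, the count of a gene per 1e+06 counts of its library, with library sizes scaled by edgeR's TMM factors. Globin genes took between 0.0253% and 48.7% of the counts, with the highest share in the 2 hour library of LG04. The 1 day library of LG04 stood apart from its own animal: its chi-square per gene was 11.3 against the 1 day library of LG15, compared with 88.1, 127 and 158 against the pre, 30 minute and 2 hour libraries of LG04. The 1 day library of LG15 was likewise nearer to that of LG04 than to its own animal. Against its own pre, 30 minute and 2 hour libraries the chi-square per gene was 75.4, 139 and 36.9. Both labels were taken as given but are in doubt. The within-animal differences of LG04 and LG15 at 1 day are in doubt with them. For 1 day against pre, the 9 genes and the lists named at that time are therefore given again without the LG04 library. Most of these values stand in a paragraph of their own. Of 1 day against 2 hours, only GATA3 is given again in this way. No fit left out the 1 day library of LG15 alone. By the same measure, 2 other libraries were nearer to another animal's library. The pre library of LG04 had 33.6 against the 2 hour library of LG15, but 82.0, 88.1 and 168 against its own 30 minute, 1 day and 2 hour libraries. For the 2 hour library of LG15 it was 27.1 against the 30 minute library of LG11, and at least 31.5 against its own animal. These labels were also taken as given. Over the 16 libraries CD3E of T cells lay between 66.3 and 202 CPM, NCAM1 of NK cells between 2.98 and 43.0, MS4A1 of B cells between 33.0 and 356, and FCGR3A of NK cells and monocytes between 51.4 and 346 CPM. CD14 of monocytes lay between 0.85 CPM (2 counts, in LG12 at 30 minutes) and 72.9 CPM, and CLEC4C of plasmacytoid dendritic cells between 0 and 0.85 CPM. PPBP of platelets (66.2 to 18723 CPM) and CSF3R of neutrophils (3.40 to 267 CPM) were found in every library as well.

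Before NKTT320 the 9 genes spanned a wide range of levels per transcript length. In FPKM, the deposited unit that divides by gene length and library size, FYN averaged 67.1 ± 12.7 (SD, n = 4) and KLRB1 56.5 ± 26.9. The middle of the order held SH2D1A at 27.9 ± 4.30, DPP4 at 24.6 ± 8.36, SLAMF6 at 18.1 ± 3.44 and SLAMF1 at 12.9 ± 3.29 FPKM. GATA3 at 7.24 ± 1.04, ZBTB16 at 5.02 ± 5.61 and CD1D at 1.91 ± 1.30 FPKM were the lowest. Each gene's range over the 4 animals overlapped that of its neighbour in this order, and FYN was above KLRB1 in only 2 of 4 animals. KLRB1, SLAMF6 and SLAMF1 were each above the next gene of the order in all 4 animals, as was DPP4.

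**Figure D1:**
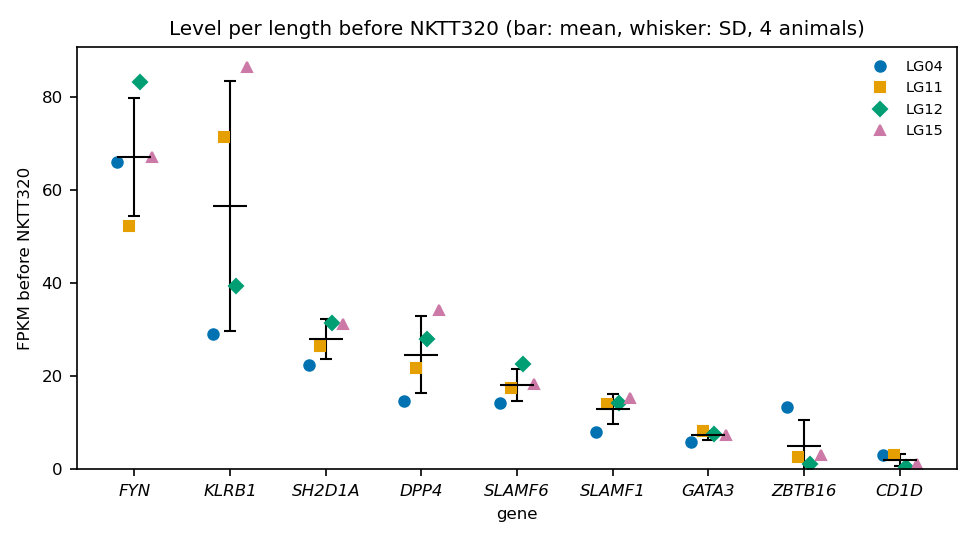
Deposited FPKM of the 9 genes in the 4 animals before NKTT320, on a linear axis from 0. Coloured symbols are animals, the black dash is the mean and the whisker the SD (n = 4); FYN and KLRB1 lie highest and CD1D lowest, and the single high ZBTB16 symbol is LG04.

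None of the 9 genes passed the test in any of the 5 comparisons of times or in the joint comparison of all 4 times. The test was edgeR's quasi-likelihood F test with the animal as a block, and p-values were adjusted by the Benjamini-Hochberg method over all 11545 genes with a threshold of 0.05. That count of 0 has to be read against all genes tested, of which 0% were called at 30 minutes against pre, 0% at 2 hours against pre and 0.225% at 1 day against pre. The share was 0% for 2 hours against 30 minutes, 0.104% for 1 day against 2 hours and 0.104% for any difference among the times. At an unadjusted p under 0.05 the 9 genes gave 1, 0, 0, 1 and 1 member in the 5 comparisons in that order, where 2.53%, 7.43%, 13.6%, 4.6% and 12.6% of all genes tested did so; in the joint comparison it was 0 members against 12.2% of all genes. DESeq2 called 0 of the 9 in each of the 5 comparisons, with 1, 1, 0, 1 and 1 member at an unadjusted p under 0.05. Higher in all 4 animals were 1, 0, 0, 3 and 0 of the 9 in the 5 comparisons, beside 6.21%, 8.06%, 9.83%, 8.54% and 11.3% of all genes tested, and lower in all 4 were 2, 2, 3, 2 and 1 of the 9, beside 4.42%, 6.52%, 9.09%, 8.06% and 9.16%. Groups without overlap were found for 0, 1, 0, 0 and 0 of the 9, beside 0.797%, 1.77%, 2.94%, 0.719% and 2.04% of all genes tested. The median log2 fold change of the 9 was -0.09, -0.17 and -0.02 at 30 minutes, 2 hours and 1 day against pre, beside 0.02, 0.02 and -0.00 over all genes tested.

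**Figure D2:**
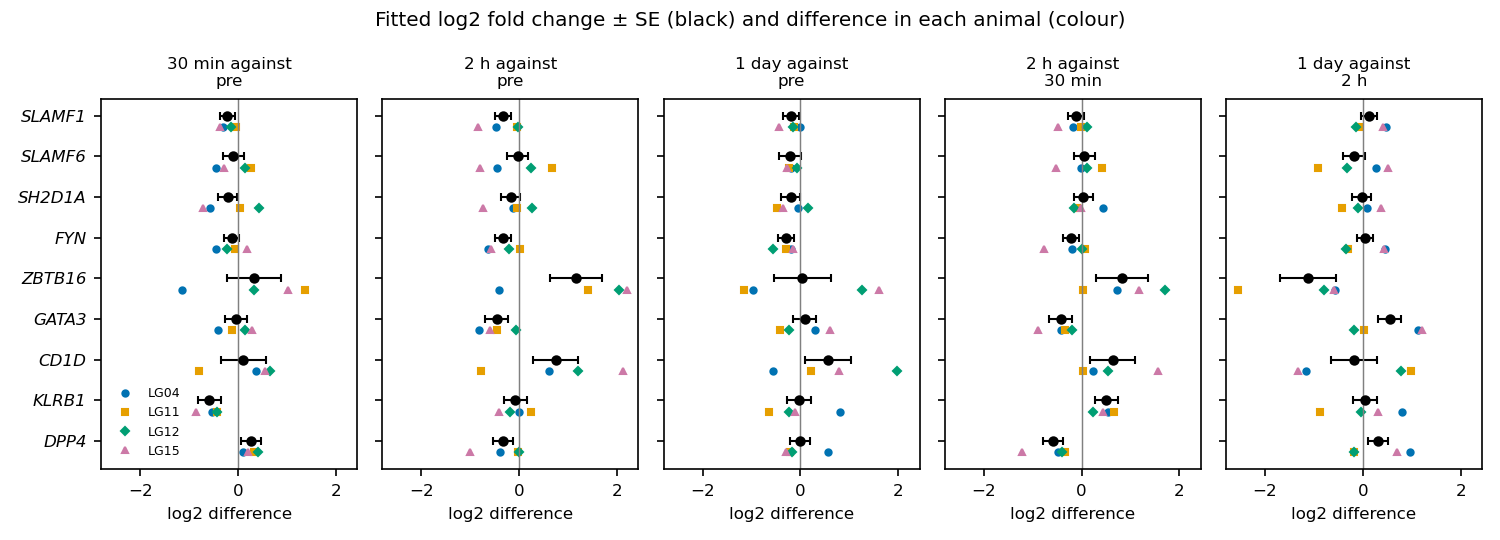
Log2 difference of each gene in the 5 comparisons of times, with 0 marked by a grey line. Black points are fitted log2 fold changes with their SE and coloured symbols the 4 single animals; ZBTB16 and CD1D have the widest errors, and no value passed the adjusted threshold.

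ZBTB16, the transcription factor that specifies innate-like T cells, had the largest fitted difference of the 9 genes. Its level in LG04 was 31.3, 14.0, 23.5 and 15.8 CPM before and 30 minutes, 2 hours and 1 day after the antibody, and in LG11 it was 5.05, 13.6, 14.0 and 2.03 CPM. In LG12 the same 4 values were 1.94, 2.55, 9.31 and 5.22 CPM and in LG15 they were 5.55, 11.6, 27.0 and 17.8 CPM. LG11, LG12 and LG15 thus had their highest value at 2 hours, while LG04 started highest and was lower at every later time, and the groups overlapped. The log2 fold change at 2 hours against pre was 1.16 ± 0.54 (SE, as beside every log2 fold change here), with a 95% interval from -0.00 to 2.33, an unadjusted p of 0.051 and an adjusted p of 0.675 in edgeR. Left without LG04 it was 1.94 with an unadjusted edgeR p of 0.0056 and an adjusted p of 0.642. ZBTB16 was higher at 2 hours than at 30 minutes in all 4 animals (0.83 ± 0.54) and lower at 1 day than at 2 hours in all 4 (-1.12 ± 0.57), with edgeR adjusted p of 0.999 and 0.45. Without LG11, whose own difference was -2.56, the latter was -0.64 (edgeR adjusted p = 0.635). These counts were thin, from 6 to 187 reads per library.

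ZBTB16 is also a known glucocorticoid-induced gene, and other such genes are therefore set beside it. FKBP5, a chaperone partner of the glucocorticoid receptor, stood at 322, 257, 417 and 366 CPM in LG04 and at 152, 742, 1070 and 202 CPM in LG11 over the same 4 times. It was higher at 2 hours than before in all 4 animals (log2 1.58 ± 0.38, edgeR adjusted p = 0.243), as was CD163, a monocyte scavenger receptor (3.08 ± 0.61, edgeR adjusted p = 0.174). CD163 is also 1 of the 13 monocyte markers tested, all of which were higher in this comparison (median 1.20), and the part of monocytes in its value was not tested. TSC22D3 (GILZ) and PER1 took no shared course: TSC22D3 at 2 hours was above its pre value in LG11 and LG12 and below it in LG04 and LG15, and PER1 at 2 hours was above it only in LG15. Of the 13 other genes of a glucocorticoid-induced list, 7 were higher and 6 lower at 2 hours against pre (median 0.07), and 4 were higher and 9 lower at 1 day against pre (median -0.28). In the latter, DUSP1, a phosphatase that dampens MAP kinases, fell by 1.20 ± 0.22 on the log2 scale (edgeR adjusted p = 0.0493), as the single called gene among all the pathway lists. The call held in 5 of 15 alternative settings, and it was lost in 10, among them without the 1 day library of LG04 (edgeR adjusted p = 0.0764), without any one of the 4 animals (edgeR adjusted p from 0.0845 to 0.26) and with no animal block (-0.99, edgeR adjusted p = 0.872). Whether these genes share a source with ZBTB16 was not tested.

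**Figure D3:**
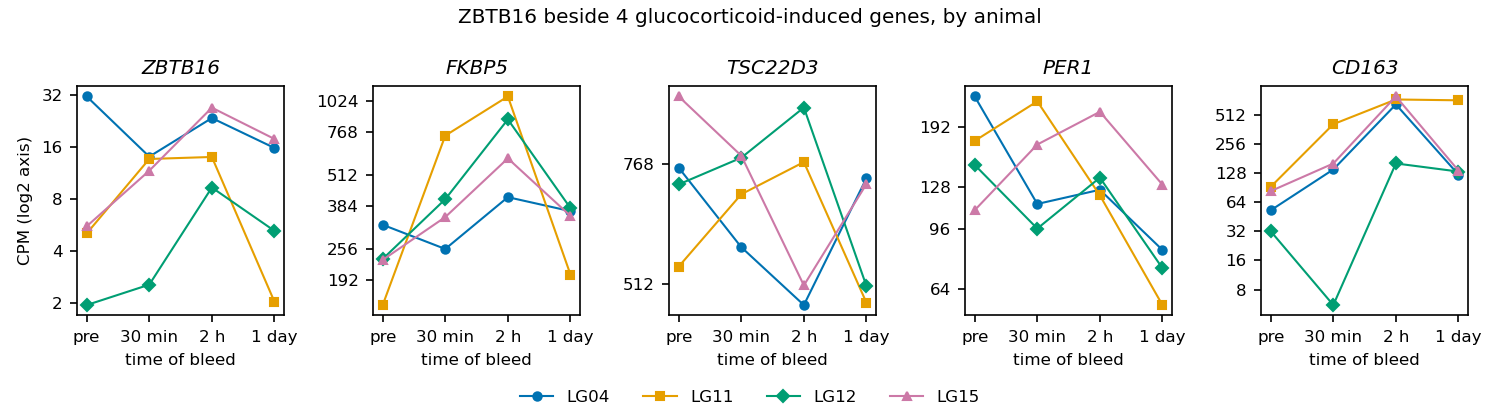
CPM (log2 axis) of ZBTB16, FKBP5, TSC22D3, PER1 and CD163 at the 4 times, one coloured line per animal. FKBP5 and CD163 are above their pre value at 2 hours in all 4 animals, ZBTB16 in LG11, LG12 and LG15, while TSC22D3 and PER1 have no common course.

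GATA3, the factor of type 2 helper and early iNKT cells, was the one gene of the 9 whose values before and at 2 hours did not overlap. It stood at 19.6, 14.6, 10.8 and 24.3 CPM in LG04 over the 4 times and at 21.8, 20.1, 15.8 and 16.1 CPM in LG11. In LG12 the values were 18.5, 20.4, 17.8 and 15.7 CPM, and in LG15 they were 19.98, 24.3, 13.0 and 30.8 CPM. All 4 pre values were thus above all 4 values at 2 hours, as in 1.77% of all genes tested in either direction. The log2 fold change at 2 hours was -0.46 ± 0.23 (edgeR unadjusted p = 0.065, adjusted p = 0.681). At 1 day GATA3 was above its pre level in LG04 and LG15 and below it in LG11 and LG12, and 1 day exceeded 2 hours by 0.55 ± 0.24 (edgeR unadjusted p = 0.039, adjusted p = 0.372). That difference was 0.39 without the 1 day library of LG04 (edgeR unadjusted p = 0.133). GATA3 had the smallest share of variance between animals of the 9 genes, 11.6%, and the largest between times, 38.5%, where the median gene tested had 46.4% and 12.1%.

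Other transcription factors of iNKT development were mostly lower at 2 hours and 1 day. Of the 20 tested from a list of 22, 3 were higher and 17 lower at 2 hours against pre (median -0.18), and 4 higher and 16 lower at 1 day (median -0.14), while at 30 minutes 11 were higher and 9 lower (median 0.04). None passed the adjusted threshold in any comparison. TBX21 (T-bet), the factor of interferon-producing iNKT and NK cells, had a log2 fold change of -0.88 ± 0.18 at 30 minutes and -0.79 ± 0.18 at 2 hours, lower in 4 of 4 animals in both (edgeR adjusted p = 0.538 and 0.198). BHLHE40, a circadian and cytokine regulator, stood at -0.57 ± 0.16 and MYB, needed early in iNKT development, at 0.91 ± 0.26 at 30 minutes (edgeR adjusted p = 1.0 for both). Beside these, all 12 T-cell markers were lower at 2 hours against pre (median -0.35) and all 11 NK markers tested were lower at 30 minutes (median -0.82), and their part in these values was not tested. The T-lineage factors TCF7 and BCL11B were lower at 2 hours than at 30 minutes in all 4 animals, with log2 fold changes of -0.58 ± 0.17 and -0.63 ± 0.17.

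Along the SLAM-SAP-FYN axis the differences were small and mostly negative. SLAMF1, a self-binding receptor, stood at 17.8, 14.2, 12.7 and 17.7 CPM in LG04 and at 22.4, 21.9, 21.8 and 20.6 CPM in LG11. In LG12 it was 20.6, 18.7, 20.3 and 18.6 CPM and in LG15 26.3, 20.4, 14.5 and 19.4 CPM. SLAMF1 was thus below its pre value in all 4 animals at all 3 later times, although by under 0.005 on the log2 scale in LG04 at 1 day, and the groups overlapped each time. The fitted log2 fold changes were -0.22 ± 0.16, -0.32 ± 0.16 and -0.19 ± 0.17, with edgeR adjusted p of 1.0, 0.688 and 0.724. All 3 comparisons share the pre libraries.

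SLAMF6, the second self-binding receptor, split the animals. In LG11 and LG12 it was higher at 2 hours (65.5 and 56.7 CPM) than before (40.8 and 47.6 CPM), and in LG04 and LG15 it was lower (33.1 and 25.5 CPM against 45.6 and 44.8 CPM). The fitted log2 fold change at 2 hours was -0.03 ± 0.21, with a 95% interval from -0.50 to 0.43. At 1 day SLAMF6 was below its pre value in all 4 animals (-0.21 ± 0.22, edgeR adjusted p = 0.79). Only 4.51% of its variance lay between times.

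SH2D1A encodes SAP, the adaptor that lets SLAM receptors recruit FYN. Its level ranged from 40.5 to 81.6 CPM over the 16 libraries, and LG12 was the highest animal at every time after the antibody. The fitted log2 fold changes against pre were -0.21 ± 0.19, -0.17 ± 0.19 and -0.20 ± 0.19 at the 3 later times, each with animals on both sides of 0. The 95% interval at 2 hours ran from -0.59 to 0.25.

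FYN, the Src-family kinase bound by SAP, had the highest counts of the 9. It stood at 215, 157, 138 and 189 CPM in LG04, and at 138, 131, 139 and 113 CPM in LG11. The values were 202, 174, 175 and 137 CPM in LG12 and 179, 204, 119 and 162 CPM in LG15. FYN at 1 day was below pre in all 4 animals, with overlapping groups (-0.29 ± 0.16, edgeR adjusted p = 0.501; -0.40 without the 1 day library of LG04). At 2 hours the log2 fold change was -0.34 ± 0.16 (edgeR unadjusted p = 0.058, adjusted p = 0.676), with LG11 level.

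The rest of the SLAM family held members with larger differences than SLAMF1 or SLAMF6, at 30 minutes. Of the 10 tested other receptors and adaptors from a list of 11, 3 were higher and 7 lower at 30 minutes (median -0.10), 4 higher and 6 lower at 2 hours (median -0.09), and 5 higher and 5 lower at 1 day (median -0.01). CD244 (2B4), an NK-cell receptor, and SH2D1B (EAT-2), the SAP relative of NK cells, were lower at 30 minutes in all 4 animals at -0.84 ± 0.18 and -0.97 ± 0.26 (edgeR adjusted p = 0.538 and 1.0). Both were higher again at 2 hours than at 30 minutes in all 4 animals, by 0.72 ± 0.19 and 0.73 ± 0.27. In RefSeq's gene order for a cynomolgus genome, CD244, LY9, SLAMF7, CD48, SLAMF1, CD84 and SLAMF6 lie in that order on chromosome 1, with 1 unnamed gene between SLAMF7 and CD48. At 30 minutes CD244, SLAMF7, SLAMF1 and SLAMF6 of this cluster stood at -0.84 ± 0.18, -0.33 ± 0.18, -0.22 ± 0.16 and -0.09 ± 0.21. Differences between them were not tested. LY9, CD48 and CD84 are not given for that time, so no trend along the chromosome can be read from these values. Of 13 kinases and adaptors that act with FYN, 2 were higher and 11 lower at 2 hours against pre (median -0.17), among them LCK, the main T-cell Src kinase, at -0.47 ± 0.16 and lower in all 4 animals (edgeR adjusted p = 0.484).

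**Figure D4:**
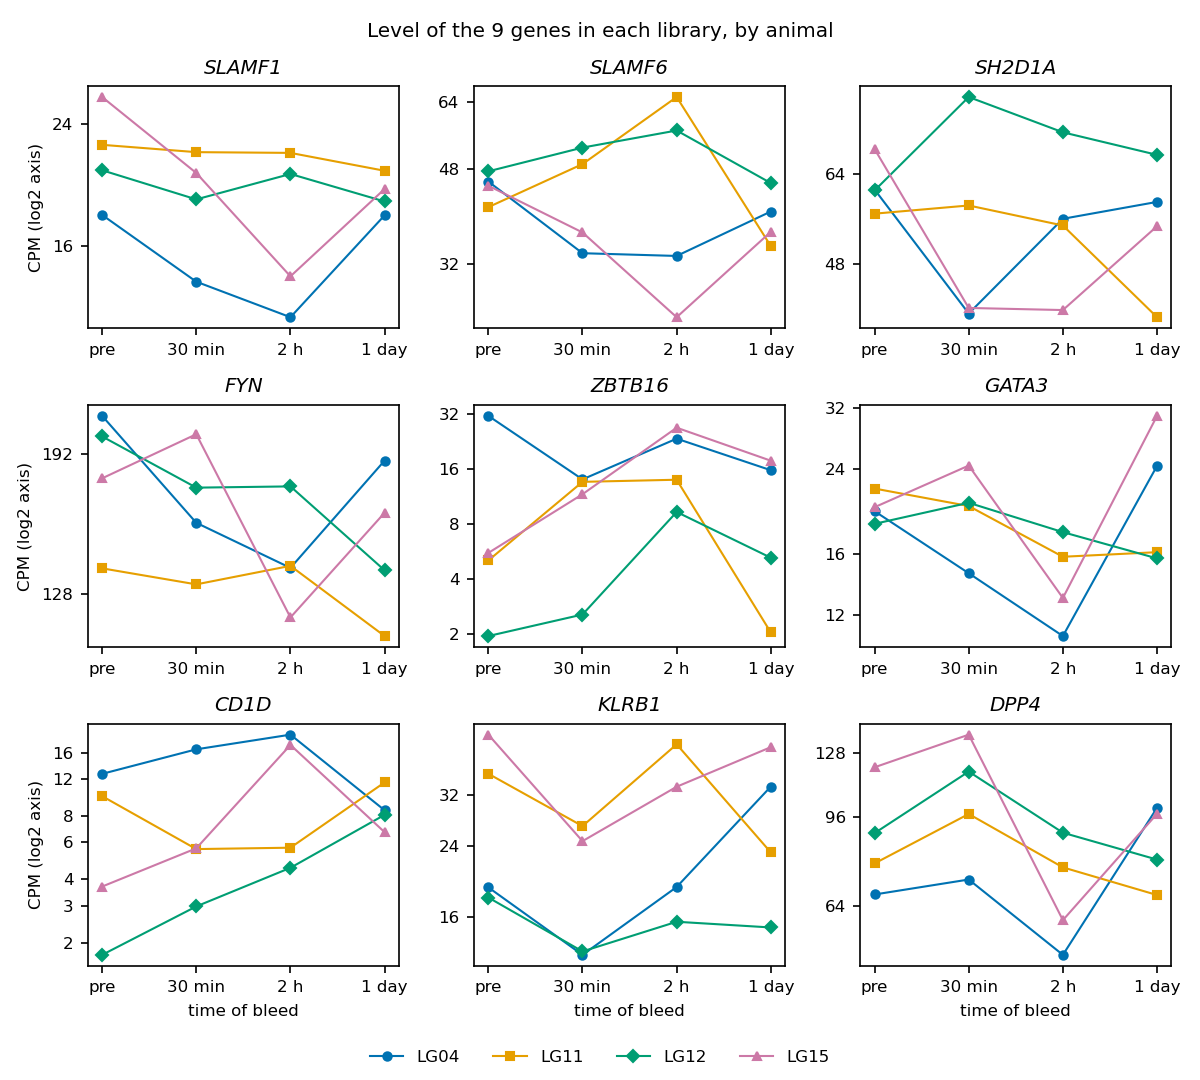
CPM of the 9 genes at the 4 times, one coloured line per animal, each panel with its own log2 axis. SLAMF1 lies below its pre value at every later time in all 4 animals, while SLAMF6 and SH2D1A diverge between animals. At 30 minutes KLRB1 is lower, and DPP4 higher, than both before and at 2 hours in all 4 animals. In LG04 DPP4 is highest at 1 day, and in LG11 KLRB1 is lowest at 1 day.

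CD1D, which presents lipid antigens to iNKT cells, had low counts, from 7 to 97 reads per library. Its level was 12.7, 16.7, 19.6 and 8.54 CPM in LG04 and 9.98, 5.58, 5.67 and 11.6 CPM in LG11. In LG12 it was 1.75, 2.98, 4.55 and 8.13 CPM, and in LG15 3.70, 5.63, 17.5 and 6.72 CPM. It was thus higher at 2 hours than before in LG04, LG12 and LG15 and lower in LG11, and the groups overlapped. The log2 fold change at 2 hours was 0.75 ± 0.46, with a 95% interval from -0.24 to 1.74 (edgeR adjusted p = 0.755). Without LG11 it was 1.32 (edgeR unadjusted p = 0.019, adjusted p = 0.65) and without LG15 0.22 (edgeR adjusted p = 0.912). CD1D is made by monocytes and B cells more than by T cells. All 13 monocyte markers tested were higher at 2 hours against pre (median 1.20, above 0 on average in 4 of 4 animals). Of 10 B-cell markers, 9 were lower (median -0.38). In LG11 the monocyte list was higher by 1.06 on average while CD1D was lower by 0.77. In LG04, LG12 and LG15 both were higher. With the monocyte list as a covariate, CD1D at 2 hours against pre was -0.07 ± 0.50. That is a value under another fit, not a corrected level. The part of monocytes or B cells in the CD1D values was not tested. Of 13 tested genes of CD1 and lipid handling from a list of 16, 12 were higher and 1 lower at 2 hours (median 0.20), 12 and 1 at 30 minutes (median 0.14), and 9 and 4 at 1 day (median 0.05). NPC2, a lysosomal sterol carrier, was higher at 2 hours in all 4 animals (0.83 ± 0.29, edgeR adjusted p = 0.521), and CTSS, a lysosomal protease, likewise (0.57 ± 0.27, edgeR adjusted p = 0.676).

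KLRB1, the lectin-like receptor CD161, was lower at 30 minutes than before in every animal. It stood at 18.9, 12.9, 19.0 and 33.5 CPM in LG04 and at 36.0, 26.8, 42.6 and 23.1 CPM in LG11. The values were 17.9, 13.2, 15.6 and 15.1 CPM in LG12 and 45.0, 24.6, 33.5 and 41.9 CPM in LG15. The groups overlapped, LG11 and LG15 lay above LG12 at each time, and 65.3% of its variance lay between animals. The log2 fold change at 30 minutes was -0.58 ± 0.24, with a 95% interval from -1.10 to -0.07, an unadjusted p of 0.029 and an adjusted p of 1.0 in edgeR. At 2 hours it was higher than at 30 minutes in all 4 animals (0.51 ± 0.24, edgeR unadjusted p = 0.054, adjusted p = 0.999).

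NK-cell markers are given beside KLRB1, and none of them was called. All 11 NK markers tested were lower at 30 minutes against pre (median -0.82, 10 with an unadjusted p under 0.05, 0 called by edgeR) and all 11 were higher at 2 hours against 30 minutes (median 0.71). Their summed level was 338 to 539 CPM before, 197 to 327 CPM at 30 minutes and 328 to 516 CPM at 2 hours, and 1 of the 12 listed markers was at 0 in every library. KLRB1 is carried by NK cells as well as by innate-like T cells, and the part of NK cells in its values was not tested. Genes shared by innate-like T and NK cells were lower at 30 minutes too: IL12RB2, an interleukin-12 receptor chain, at -0.95 ± 0.20, IL2RB at -0.75 ± 0.22 and the cytotoxic granule gene NKG7 at -0.76 ± 0.28, each lower in 4 of 4 animals and none called. Of that list of innate-like T-cell surface and homing genes, 8 of the 23 tested were higher and 15 lower at 30 minutes (median -0.14). CCR2, a homing receptor that monocytes also carry, was higher than pre in all 4 animals at 2 hours (1.33 ± 0.30, edgeR adjusted p = 0.196) and at 1 day (1.22 ± 0.30, edgeR adjusted p = 0.1).

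DPP4, the peptidase CD26 of memory and innate-like T cells, had the opposite sign at 30 minutes. It stood at 67.4, 72.1, 51.2 and 99.9 CPM in LG04 and at 77.6, 97.1, 76.2 and 67.2 CPM in LG11. In LG12 it was 89.0, 118, 89.2 and 78.9 CPM, and in LG15 120, 139, 60.0 and 97.2 CPM. DPP4 was thus higher at 30 minutes than before in all 4 animals, and lower at 2 hours than at 30 minutes in all 4, with overlapping groups in both. The first difference was 0.26 ± 0.20 (edgeR adjusted p = 1.0) and the second -0.59 ± 0.21, with a 95% interval from -1.03 to -0.14, an unadjusted p of 0.014 and an adjusted p of 0.986 in edgeR. The second value was -0.39 (edgeR unadjusted p = 0.112) without LG15. The other 5 tested markers of MAIT cells, which carry much DPP4, KLRB1 and ZBTB16, had a median of -0.00 at 30 minutes, -0.08 at 2 hours and 0.12 at 1 day against pre, with 2, 0 and 3 of 5 higher.

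T-cell markers were lower at 2 hours than at both earlier times. All 12 were lower against pre (median -0.35) and all 12 against 30 minutes (median -0.31), with none called by edgeR and 5 and 4 at an unadjusted p under 0.05; their summed level was 1368 to 1624 CPM before and 994 to 1255 CPM at 2 hours, with none at 0. With the mean of this T-cell list as a covariate, the log2 fold change at 2 hours against pre went from -0.46 to 0.11 ± 0.27 for GATA3 and from -0.32 to 0.31 ± 0.18 for DPP4. It went from -0.34 to 0.09 ± 0.17 for FYN, from -0.32 to -0.01 ± 0.22 for SLAMF1 and from 0.75 to -0.38 ± 0.62 for CD1D. SLAMF6 went from -0.03 to 0.44 ± 0.27, KLRB1 from -0.08 to 0.42 ± 0.31 and SH2D1A from -0.17 to 0.12 ± 0.28. ZBTB16 went from 1.16 to 1.36 ± 0.84 (edgeR unadjusted p = 0.133). The list itself was lower at 2 hours than before in all 4 animals (-0.47, -0.33, -0.17 and -0.63 in LG04, LG11, LG12 and LG15). Covariate and time thus overlap in this comparison, and the part of T cells in any of these values was not tested. KLRB1 at 2 hours against 30 minutes went from 0.51 to 0.91 ± 0.28 (edgeR unadjusted p = 0.0071) with the T-cell list and to 0.80 ± 0.20 (edgeR unadjusted p = 0.0019) with the monocyte list, and neither passed the adjusted threshold. These are values under another fit, not corrected levels.

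**Figure D5:**
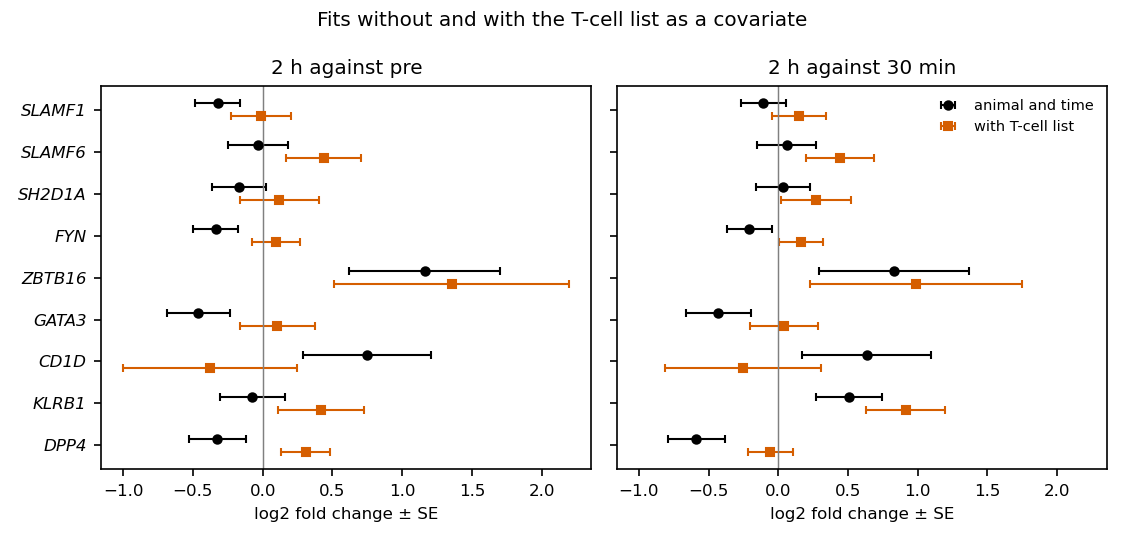
Log2 fold change with its SE for the 9 genes at 2 hours against pre and against 30 minutes, from the fit with animal and time (black circles) and from the fit that adds the mean log2 CPM of 12 T-cell markers (orange squares). At 2 hours against pre, GATA3, DPP4, FYN, SLAMF6, SH2D1A and KLRB1 lie above 0 in the latter, SLAMF1 near 0 and CD1D below it. ZBTB16 lies above 0 in both.

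The genes whose course over the 16 libraries was most like that of each of the 9 were found by Pearson r of log2 CPM after each animal's mean was taken off. These r are descriptions: the libraries share animals, depth and cell mixture. For KLRB1 they were PDGFD (r = 0.91), CCL5 (0.88) and GZMH (0.87), of which the chemokine CCL5 and the granzyme GZMH are products of cytotoxic lymphocytes; GZMH and GZMB are close copies whose reads may be split. For DPP4 they were PSIP1 (0.95), TMEM123 (0.95) and ITGA1 (0.94), an integrin chain of memory T cells. FYN was nearest to TRANK1 (0.93), GPR174 (0.91) and POGZ (0.89), and SLAMF6 to TSC22D3 (0.89), FAM98B (0.89) and GCC2 (0.87). Among the genes nearest to ZBTB16 were SYTL3 (0.88) and TNPO2 (0.86), and GATA3 was nearest to CRY1 (0.91), KLF8 (0.90) and FAM134B (0.89). For SLAMF1 the 3 genes were PPP2R2A (0.92), WDR7 (0.91) and TAMM41 (0.90), for SH2D1A HNRNPA3P1 (0.93), AKAP5 (0.87) and ACVR1C (0.87), and for CD1D AATK (0.91), TOM1 (0.89) and FAM109A (0.88). None of the 9 was among the 3 nearest genes of another of the 9.

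Without the 1 day library of LG04, none of the 9 genes was called at 1 day against pre either. The log2 fold change there was then 0.11 for ZBTB16 in place of 0.04, 0.89 for CD1D in place of 0.57 and -0.07 for GATA3 in place of 0.09. For DPP4 it was -0.26 in place of -0.01 and for KLRB1 -0.32 in place of -0.02, while SLAMF1, SLAMF6 and SH2D1A stood at -0.27, -0.30 and -0.28. Among the lists, 13 of 13 CD1 and lipid-handling genes were then higher (median 0.25), 5 of 5 MAIT markers higher (median 0.27) and 6 of 10 SLAM-family genes higher (median 0.03). Of the iNKT transcription factors 17 of 21 tested were lower (median -0.27), and of the glucocorticoid-induced genes 9 of 13 (median -0.46). CCR2 stood at 1.37 ± 0.31 (edgeR adjusted p = 0.118).

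The animals differed more than the times for 7 of the 9 genes, GATA3 and DPP4 being the exceptions. The same held for the median gene tested, with 46.4% of variance between animals and 12.1% between times. How many of all genes tested had it was not counted. The share of variance between animals was 65.3% for KLRB1, 52.3% for ZBTB16, 50.3% for CD1D and 47.4% for SLAMF1, and between times it was 14.7%, 18.3%, 12.8% and 22.9%. For DPP4 the 2 shares were 26.8% and 34.1%. From the lowest to the highest library ZBTB16 spanned 16.1-fold and CD1D 11.2-fold, while FYN spanned 1.90-fold and SH2D1A 2.01-fold.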

How the data were processed

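The deposited count tables hold whole-number read counts per gene that the authors did not normalize. Per the submitters' processing notes, reads passed through FastQC, Trimmomatic, STAR, HTSeq, DESeq and edgeR on human build GRCh37 (hg19); for tool versions and the strand setting of the counting, the sources used here give nothing. Identifiers are human Entrez numbers, so reads of macaque RNA were assigned to human models, which can undercount diverged genes; overlapping and antisense genes are uncertain. The deposited FPKM values come from the authors, and their program is not named in the labels. Per the labels' protocols, ribosomal RNA was depleted and stranded total RNA was read in single reads of 75 cycles.

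From the counts, 24369 entries were joined to 23602 symbols (766 with several entries, 653 of them without a count). Of 24 count columns that cover the whole series, 23 equalled the named library; the 2 hour column of LG04 held the 1 day values, so the tables per animal were used. EdgeR 4.0.16 (R 4.3.3) was fitted to all 16 libraries with TMM factors, its default filter (11545 genes kept), animal and time (9 residual degrees of freedom) and Benjamini-Hochberg adjustment at 0.05. CPM are over TMM-scaled library sizes; log2 CPM used a prior count of 2. Each SE is the log2 fold change over the root of F, and where edgeR bounds p by the Poisson limit, p is larger than the SE implies. DESeq2 1.42.0 and limma 3.58.1 on log2(FPKM + 1) or log2(FPKM + 0.1), with FPKM of at least 1 in 4 libraries, were alternatives. The groups and the animal come from the labels; the same animals were bled at all times, so the animal pairs the libraries (within an animal, deviations from the group means correlated with median r 0.557, over 0.1 in 23 of 24 pairs; between animals median -0.218). No 2 of the 120 library pairs agreed within sampling noise (smallest chi-square per gene 5.15). With the animal as a block, the p-values rest on how far the differences between times vary among these 4 animals. EdgeR moderates that spread of each gene toward a trend over all genes tested. Each animal gave 1 library per time, so noise of the single library is part of that spread.

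The 9 genes and all lists were chosen with earlier results of these data known. Named were all 9 genes, called genes of each pathway list, otherwise up to 3 per list and comparison by smallest p, the 3 nearest genes by r (1 of them is not reported here), and fixed markers. Markers of dendritic cells, neutrophils, red cells and platelets were also listed: at 2 hours against pre their medians were 0.50, 0.82, 0.91 and 0.66, with 4 of 7, 7 of 9, 9 of 9 and 8 of 9 tested higher. B-cell markers had a median of -0.38, with 1 of 10 higher. At 1 day against pre all 9 platelet markers tested were higher (median 2.85, and 2.53 without the 1 day library of LG04). The fit was tested on simulated counts for 2 hours against pre, with changes placed only in genes of mean log2 CPM above 2. Of 100 genes changed by 1 on the log2 scale, 47 were called in the right direction. Of 100 changed by 2, 87 were, and 12 unchanged genes were called, in a fit of 11438 genes. A change of 1 on the log2 scale can thus go uncalled. No sequence is printed because no sequence table was used here. Gene order was read from RefSeq's table of a cynomolgus assembly other than the build of the files, and all 9 genes were found in it.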

Additional observations from a re-analysis of the deposited data

Results flagged for a closer look

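Of 81 groups of 4 values checked (CPM of each of the 9 genes at each time, and the log2 difference of each gene in each comparison by animal), 4 held a value far from the other 3 by Dixon's criterion, which chance alone meets in about 1 in 20 groups. ZBTB16 before the antibody stood at 31.3 CPM in LG04 against 1.94, 5.05 and 5.55 CPM in the other animals. That pre library of LG04 was also nearer to the 2 hour library of LG15 than to its own animal. The log2 difference of ZBTB16 from 2 hours to 1 day was -2.56 in LG11 and between -0.79 and -0.56 in the others. For DPP4 the log2 difference of 1 day against pre was 0.57 in LG04, whose 1 day library stood apart from its own animal, and between -0.30 and -0.17 in the others. The log2 difference of DPP4 at 2 hours against 30 minutes was -1.21 in LG15 and between -0.49 and -0.35 in the others.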

How the results depend on the processing

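The count of 0 called genes among the 9 held in all 6 comparisons (5 pairs of times and the joint one) under all 15 alternatives: RLE factors, DESeq2, no filter, no animal block, each animal left out (range 0 to 0), the 1 day library of LG04 or the 4 shallowest libraries left out, globin genes left out, the monocyte or T-cell list as a covariate, and limma on FPKM with either pseudocount. With no replicate block, that is without the pairing by animal, the count was also 0, and ZBTB16 at 2 hours against pre was 0.73. A sign change of a value that was called in neither fit was not counted as a reversal, and such changes were common: of 675 alternative log2 fold changes of the 9 genes, 95 had the other sign, and 16 of the 45 results kept their sign throughout. ZBTB16 at 2 hours against pre ranged from 0.73 (no animal block) to 1.94 (without LG04), KLRB1 at 30 minutes against pre from -0.73 to -0.47, DPP4 at 2 hours against 30 minutes from -0.71 to -0.06 and GATA3 at 2 hours against pre from -0.71 to 0.11, the last value of DPP4 and GATA3 with the T-cell list. KLRB1 at 1 day against pre was -0.02, and -0.32 without the 1 day library of LG04.

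Over all genes, the count called at 1 day against pre was 26 in the edgeR fit reported, 400 with DESeq2, 412 with the monocyte covariate, 70 without a filter, 67 without LG15, 1 or 2 without LG04, LG12 or LG11, and 3 with no animal block; the cause was not tested. DUSP1, IFNG, CCR2 and the gene lists were examined under these alternatives only after the data were seen. DESeq2 called 79 genes at 2 hours against pre, where edgeR called 0. Plain CPM shifted the median of all genes by up to -0.26 (2 hours against pre, from 0.02 to -0.24), and 29 of the 45 differences of the 9 genes were then negative, against 28 with TMM. The order of the 9 genes per length was the same in TPM. That check could show little, since TPM rescales the FPKM of each library and keeps the order within it. ZBTB16 and CD1D, with as few as 6 and 7 reads in a library, had the least precision.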

Other observations

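Of a list of 12 cytokines that iNKT cells can release, 3 were tested (IFNG, TGFB1 and IL10), TGFB1 with 15896 counts in all. IL4 and CSF2 were listed at 0 in all 16 libraries, as were TNF and LTA; so were NCR3, IL3RA and GP1BB of the cell-type lists, and a 0 on human gene models need not mean low expression. IL2 and IL17A had 1 count each in all libraries together. IL13, IL5 and IL21 had 5, 7 and 8 counts in all. IFNG, the type 1 cytokine of T and NK cells, had 315 counts in all and was lower than before in 4 of 4 animals at 30 minutes (log2 -1.41 ± 0.40), 2 hours (-1.51 ± 0.41) and 1 day (-0.97 ± 0.42), and none of these passed (edgeR adjusted p = 1.0, 0.324 and 0.325). The 1 day value was -0.98 ± 0.47 without the 1 day library of LG04 (edgeR adjusted p = 0.426). TGFB1 was lower at 30 minutes in 4 of 4 animals (-0.54 ± 0.25, edgeR adjusted p = 1.0).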
